A study of Glycine max with 102 samples.

Results

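The genes on both sides of the rhg1 repeat of soybean were followed here, gene by gene. They are the 67 gene IDs of chromosome 18 that run from Glyma.18G019000 to Glyma.18G026000, without the 4 IDs of the repeat itself (Glyma.18G022400, Glyma.18G022500, Glyma.18G022600 and Glyma.18G022700). Of the 56044 gene IDs measured, 34 lie on the lower-ID side (left flank) and 33 on the higher-ID side (right flank). Within that range members were taken by ID alone, whatever their expression. The question was how far beyond the repeat a gene is still higher in the libraries in which the repeat is highly expressed.

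rhg1 is a locus known for resistance to the soybean cyst nematode, a parasite of the root. Resistant lines carry a block of neighbouring genes in tandem copies, whereas susceptible lines carry a single copy, and the genes in the block are known to be more highly expressed where copies are more numerous. The block is known to hold genes for an amino acid transporter, an alpha-SNAP (a protein of vesicle traffic) and a wound-inducible protein. The flanking genes were set outside that block by ID alone. No gene coordinates were available, so a block edge that falls inside a neighbouring gene would not be seen. The table pairs no ID with a name, and 0 of its 56044 IDs matched the RefSeq table, so no role is given for any single ID.

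RNA was sequenced from leaves of plants aged 18 days, at vegetative stage 2 (V2), with 1 library per accession. The accessions were 41 parents of the soyNAM population (a nested association mapping panel) and 61 milestone cultivars, and they differ in genotype, with no treatment. Values are FPKM (fragments scaled by gene length and by library total), so they are per length and relative within a library, and the depth behind them is unknown.

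Within each collection the libraries were split by the level of Glyma.18G022400, at 20 FPKM or more (rhg1-high) or below (rhg1-other). The split is by expression, not by a copy number or a resistance score. The soyNAM parents had 7 rhg1-high libraries (NAM03, NAM05, NAM10, NAM12, NAM13, NAM15 and NAM27) and 34 rhg1-other libraries. The milestone cultivars had 2 rhg1-high libraries (17 and 61) and 59 rhg1-other libraries. Because each accession had 1 library, the spread within a set is the spread between accessions and includes their other genetic differences. Columns were not tied to named cultivars, and collection and any batch cannot be told apart.

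Parent, NAM10, NAM31, NAM11 and NAM06, 5 soyNAM libraries, stood apart from the rest. They had a median Spearman correlation with the other libraries of 0.862 to 0.895, while it was 0.91 or more in the remaining 97. NAM10 is one of the 7 soyNAM rhg1-high libraries, so for several members the log2 difference is also given without it. As a check of the tissue, the leaf gene for the Rubisco small subunit, Glyma.13G046200, had a median of 18655 FPKM and was listed at 0 in 1 milestone library. The other leaf gene looked at, Glyma.19G046800, had a median of 0 and was listed at 0 in 60 of the 102 libraries, and the leaf markers summed to 0 in that 1 library. The 3 leghemoglobin genes of root nodules reached at most 2.68 FPKM and the 2 seed storage genes at most 0.853 FPKM. No 2 libraries held identical values.

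The repeat genes are described first, as the level of one of them made the split. Glyma.18G022400 had 67.4, 60.7, 75.1, 89.9, 80.9, 77.2 and 66.2 FPKM in soyNAM rhg1-high libraries NAM03, NAM05, NAM10, NAM12, NAM13, NAM15 and NAM27, against a lowest, median and highest value of 3.23, 4.87 and 11.6 FPKM in the 34 others. It had 26.2 FPKM in milestone library 17 and 65.6 FPKM in 61, against 2.37, 4.81 and 10.4 FPKM in the 59 other cultivars. The library just inside the split was thus milestone 17, and those just outside were NAM11 at 11.6 FPKM and milestone 53 at 10.4 FPKM. Glyma.18G022500 ranged over 214 to 402 FPKM in soyNAM rhg1-high libraries and 18.9 to 129 FPKM in the others, and had 130 and 248 FPKM in milestone 17 and 61, against 13.2 to 64.8 FPKM in the other cultivars. Glyma.18G022700 ranged over 89.8 to 201 FPKM in soyNAM rhg1-high libraries and 5.6 to 45.2 FPKM in the others, and had 73.9 and 236 FPKM in milestone 17 and 61, against 1.29 to 33.8 FPKM in the other cultivars. The sets of Glyma.18G022400 cannot overlap, since its level made them, and those of Glyma.18G022500 and Glyma.18G022700 did not overlap in either collection. The fourth, Glyma.18G022600, averaged 0.155 FPKM over all libraries and was too low to test. It had 0.982, 0.839, 1.06 and 0.998 FPKM in NAM03, NAM05, NAM12 and NAM27, but 0.0893, 0.0239 and 0.115 FPKM in NAM10, NAM13 and NAM15, within the range of 0 to 0.753 FPKM in the 34 other parents.

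Of the 67 flanking genes, 39 averaged at least 1 FPKM over the 102 libraries and were tested, 20 on the left and 19 on the right. The other 28, 14 on each side, were below that filter. The tested flanking genes spanned a wide range of levels, with 12 at a mean of 10 FPKM or more and 27 at 1 FPKM or more in every library. The 5 highest means belonged to Glyma.18G024600 (166 FPKM), Glyma.18G021500 (98.8 FPKM), Glyma.18G025600 (61.1 FPKM), Glyma.18G025900 (46.2 FPKM) and Glyma.18G023200 (34.3 FPKM). Among those not tested, Glyma.18G020300 and Glyma.18G023800 were listed at 0 in all 102 libraries, 9 were below 0.1 FPKM in every library (these 2 included), and 13 reached 1 FPKM in at least 1 library. Low and high genes lay side by side in the ID order, as the plot of levels by ID shows. Over the 102 libraries the coefficient of variation of the tested members ran from 12.5% (Glyma.18G019200) to 517% (Glyma.18G020600), and it was 17.5% for Glyma.18G022300.

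**Figure D1:**
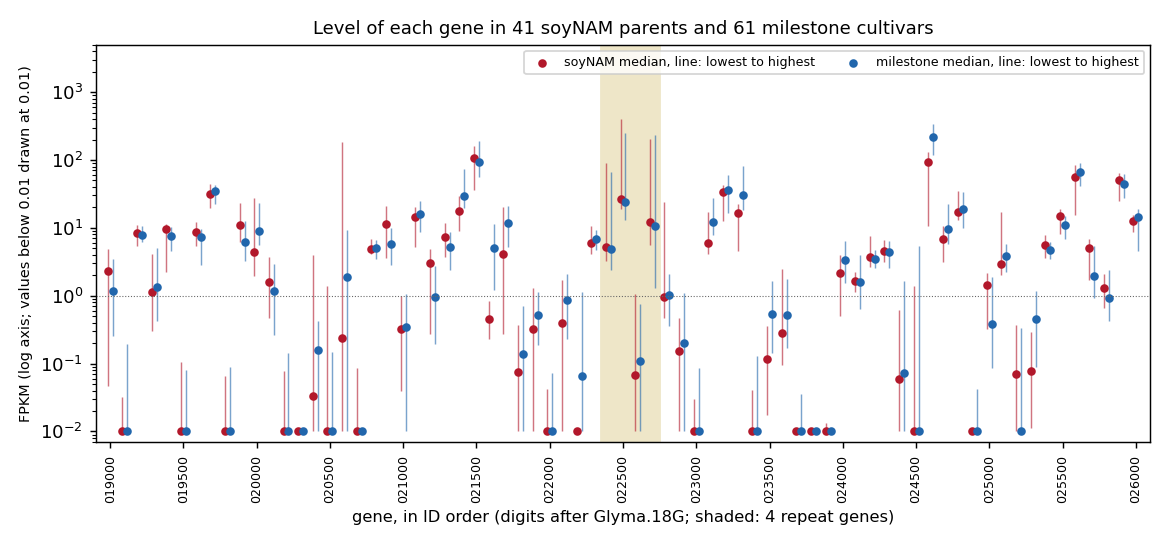
Level of the 67 flanking genes and the 4 repeat genes (shaded) in ID order, in FPKM on a log axis, for the 41 soyNAM parents (red) and the 61 milestone cultivars (blue); points are medians, lines run from the lowest to the highest library, and the dotted line is 1 FPKM. Genes well above 1 FPKM and genes near 0 stand next to each other on both sides, and 5 low genes (Glyma.18G021800 to Glyma.18G022200) lie between Glyma.18G021700 and Glyma.18G022300.

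In the soyNAM parents the run of members called higher was 1 gene long on the left side and 0 on the right side. Glyma.18G022300, the member next to the repeat on the left, was higher in rhg1-high libraries, and 1 member farther out on the left, Glyma.18G021100, was lower. No tested member on the right side was called. These 2 calls were made by limma on log2(FPKM + 1), with Benjamini-Hochberg adjustment over the 30101 genes at a mean of at least 1 FPKM and a threshold of 0.05. Of the whole set of genes tested, 25 (0.0831%) passed in this comparison, 21 higher (0.0698%) and 4 lower (0.0133%). Of the 21, 3 were repeat genes, among them Glyma.18G022400, whose level fixed the sets. The median log2 difference over the 39 tested members was -0.027, beside -0.006 over all genes.

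Glyma.18G022300 had 7.68, 7.88, 9.19, 10.7, 9.18, 8.83 and 7.23 FPKM in soyNAM rhg1-high libraries NAM03, NAM05, NAM10, NAM12, NAM13, NAM15 and NAM27, against a lowest, median and highest value of 4.15, 5.79 and 8.82 FPKM in the 34 others. The sets overlapped: 4 of the 7 rhg1-high libraries were above every other parent, and 4 of the 34 others (NAM06 at 8.82, NAM31 at 7.46, NAM14 at 7.29 and NAM22 at 7.25 FPKM) were above the lowest rhg1-high library. All 7 lay above the median of the others. The means were 8.67 ± 1.18 FPKM (SD, n = 7) and 5.99 ± 0.925 FPKM (SD, n = 34), a ratio of 1.45, where the repeat genes that did not make the split, Glyma.18G022500 and Glyma.18G022700, had ratios of 8.57 and 9.80. NAM10 had the highest value of both repeat genes, 402 and 201 FPKM. Their medians were 228 and 103 FPKM in the 7 and 25.7 and 11 FPKM in the 34 others. For Glyma.18G022300 the log2 difference was 0.47 (SE 0.0769, 95% interval 0.32 to 0.62) with a limma adjusted p of 0.000109. The exact two-sided rank-sum test gave p = 2.67e-06 and an adjusted p of 0.0201, and 4 genes in all (0.0133%) passed by that test: this member and the 3 tested repeat genes. Of these 3, Glyma.18G022400 passed because its level fixed the sets.

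The call on Glyma.18G022300 did not rest on a single library. Each of the 41 soyNAM libraries was left out in turn, and the log2 difference stayed between 0.42 and 0.51, with the highest limma adjusted p, 0.00623, when NAM12 was left out. Without the 5 libraries that stood apart the log2 difference was 0.49. In whole leaves, more cells of a type that expresses a gene and more of its RNA per cell cannot be told apart. NAM11, the parent just under the split by Glyma.18G022400, had 6.87 FPKM of Glyma.18G022300. The strand setting used in quantification is not given. Reads of Glyma.18G022300 and of any overlapping or antisense transcript therefore cannot be told apart, and reads of a near-identical copy could be shared. Whether part of Glyma.18G022300 lies within the tandem block was not tested, so its rise is not shown to reach beyond that block.

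In the milestone cultivars the run of called members was 0 on both sides. With 2 rhg1-high libraries this does not show where a rise ends: the SE for Glyma.18G022300 was 0.133, against 0.0769 in soyNAM parents. No flanking member was called by limma in either direction, where 48 of the 30101 genes (0.159%) were called, 24 higher and 24 lower (0.0797% each). One member, Glyma.18G024700, passed an unadjusted p of 0.05, and none was called by the exact rank-sum test, which with 2 libraries against 59 cannot give a p below 0.00109. By that test 2 members were under an unadjusted p of 0.05, and no gene of the 30101 passed the adjustment. With only 2 rhg1-high cultivars, their spread is taken by the model to be like that of the other sets.

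Glyma.18G022300 had 8.09 FPKM in milestone library 17 and 6.91 FPKM in 61, against a lowest, median and highest value of 4.69, 6.72 and 9.27 FPKM in the 59 other cultivars. Both were above the median, and 21 of the 59 others were above the lower of them. The log2 difference was 0.15 (95% interval -0.11 to 0.41), with a limma adjusted p of 0.9996. The difference between the collections in this change was 0.32 (95% interval 0.02 to 0.63), with an unadjusted p of 0.0395 and a limma adjusted p of 0.9999. The higher level in soyNAM rhg1-high parents is therefore not shown to differ from the change in the milestone cultivars. For that difference 25 of the 30101 genes (0.0831%) were called, 0.0532% higher and 0.0299% lower, and 0 were members, with 2 members and 1090 genes (3.62%) at an unadjusted p under 0.05.

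**Figure D2:**
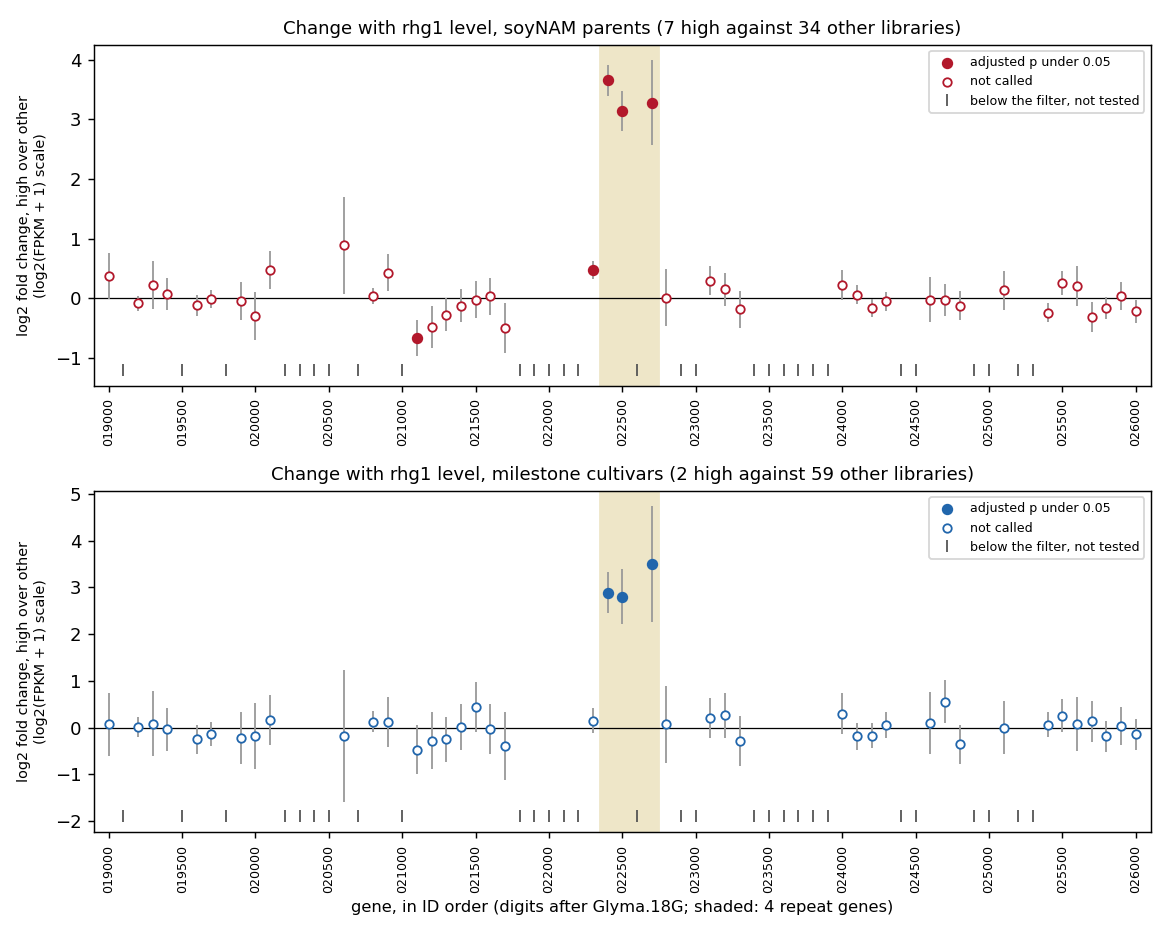
Log2 difference of rhg1-high over rhg1-other libraries, on the log2(FPKM + 1) scale, for each gene in ID order, with 95% intervals from limma; the upper panel holds the soyNAM parents and the lower panel the milestone cultivars, and ticks at the foot mark genes too low to test. The 3 tested repeat genes (shaded) stand at 2.80 to 3.65 in both panels, and 1 of them, Glyma.18G022400 (3.65 in soyNAM), made the split. The adjoining Glyma.18G022300 stands at 0.47 in soyNAM and 0.15 in milestone, and Glyma.18G022800 on the other side at 0.01 and 0.07.

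The joint rise, counted as the run of members called higher in both collections going outwards from the repeat, was 0 members on the left and 0 on the right. On the left this 0 was set by the milestone cultivars, with 2 rhg1-high libraries, as the run in soyNAM parents was 1. It therefore does not show that a joint rise is absent there. On the left the run in soyNAM parents ended below Glyma.18G022300, but the next 5 IDs (Glyma.18G021800 to Glyma.18G022200) were not tested, so the first tested gene past it is Glyma.18G021700. That gene had a log2 difference of -0.50 (95% interval -0.92 to -0.08) in soyNAM and -0.40 (-1.13 to 0.32) in milestone cultivars, and neither was called. Without NAM10, its lowest rhg1-high library in soyNAM at 0.688 FPKM, the soyNAM value was -0.31 (-0.74 to 0.13). On the right the first gene, Glyma.18G022800, was itself tested. IDs give the order of genes and not the distance between them.

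The 4 nearest untested genes on the left were below 1 FPKM in most libraries. Glyma.18G022200 was listed at 0 in all 41 soyNAM parents, while its milestone values were 0 FPKM in library 17, 0.1 FPKM in 61 and a median of 0.0658 FPKM in the 59 others, with a highest value of 1.12 FPKM in library 54. Glyma.18G022100 had 0.494, 0.51, 1.7, 0.123, 0.443, 0.216 and 0.543 FPKM in soyNAM rhg1-high libraries, in the order given above, against 0, 0.374 and 0.811 FPKM as the lowest, median and highest of the others. Only NAM10 lay outside that range. Glyma.18G022000 was listed at 0 in all 7 soyNAM rhg1-high libraries and stayed at or below 0.0738 FPKM in every library. Glyma.18G021900 averaged 0.233 ± 0.105 FPKM in soyNAM rhg1-high libraries and 0.364 ± 0.231 FPKM in the others (SD, n = 7 and 34). Next to it, the untested Glyma.18G021800 averaged 0.183 ± 0.13 and 0.0686 ± 0.0789 FPKM in these sets. Of the 7 rhg1-high libraries 6 were above the median of the others, and the sets overlapped. In milestone 17 and 61 it had 0.132 and 0.268 FPKM, against a median of 0.138 FPKM in the 59 others.

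To the right of the repeat, Glyma.18G022800 had 0.733, 0.762, 16.5, 0.626, 0.886, 0.521 and 0.581 FPKM in the 7 soyNAM rhg1-high libraries, against a lowest, median and highest value of 0.467, 1.07 and 24.3 FPKM in the others. Below the median of the others were 6 of the 7, and the high values on both sides of the split were those of NAM10 and Parent. Its log2 difference was 0.01 (95% interval -0.47 to 0.49), and -0.47 (-0.91 to -0.04) without NAM10, with a limma adjusted p of 0.485. In milestone 17 and 61 it had 0.787 and 1.48 FPKM, against 0.355, 1.02 and 2.1 FPKM in the others, a log2 difference of 0.07 (-0.76 to 0.89). Glyma.18G022900 averaged 0.131 ± 0.0965 FPKM in soyNAM rhg1-high libraries and 0.197 ± 0.127 FPKM in the others (SD, n = 7 and 34), and Glyma.18G023000 stayed at or below 0.0856 FPKM in every library.

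Glyma.18G023100 had 6.85, 9.34, 17, 5.79, 6.24, 4.91 and 5.99 FPKM in the 7 soyNAM rhg1-high libraries, against 4.18, 5.76 and 10.8 FPKM as the lowest, median and highest of the others. NAM10 alone was above every other parent. The log2 difference was 0.29 (95% interval 0.05 to 0.54) with a limma adjusted p of 0.451, and it was 0.11 without NAM10. Glyma.18G023200 had 36.3, 38.2, 16.1, 38.8, 42.3, 35.9 and 37.1 FPKM, against 12.4, 32.2 and 40.3 FPKM. Here NAM10 was the lowest of the 7, and the log2 difference was 0.15 (limma adjusted p of 0.81), or 0.32 without NAM10 (adjusted p of 0.484). In the milestone cultivars Glyma.18G023100 and Glyma.18G023200 differed by 0.20 and 0.27 on the log2 scale, each with a 95% interval that includes 0.

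**Figure D3:**
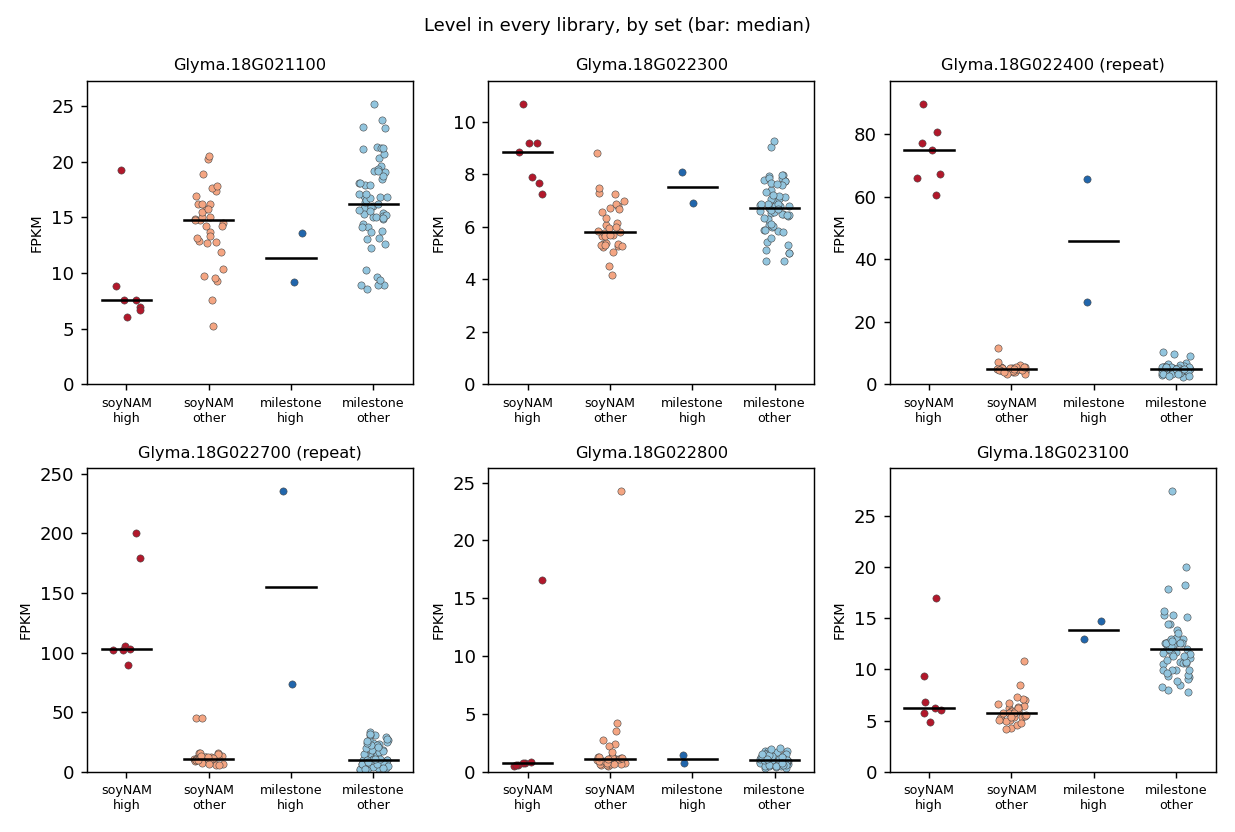
Level in FPKM of 4 flanking genes and 2 repeat genes in every library, by set: soyNAM rhg1-high (7), soyNAM rhg1-other (34), milestone rhg1-high (2) and milestone rhg1-other (59); each point is a library and the bar is the median. Of the 2 repeat genes, Glyma.18G022400 made the sets and Glyma.18G022700 separates rhg1-high from rhg1-other libraries. Glyma.18G022300 is shifted in soyNAM with overlap, and the single high points of Glyma.18G022800 in the soyNAM sets are NAM10 (16.5 FPKM) and Parent (24.3 FPKM).

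Farther out on the left, Glyma.18G021100 was lower in soyNAM rhg1-high libraries. It had 6.09, 6.96, 8.8, 6.65, 19.3, 7.57 and 7.61 FPKM in NAM03, NAM05, NAM10, NAM12, NAM13, NAM15 and NAM27, against a lowest, median and highest value of 5.23, 14.8 and 20.5 FPKM in the 34 others. Of the 7, 6 were below the median of the others and NAM13 was above it, so the sets overlapped. The means were 8.99 ± 4.61 FPKM (SD, n = 7) and 14.2 ± 3.39 FPKM (SD, n = 34). The log2 difference was -0.66 (95% interval -0.96 to -0.36) with a limma adjusted p of 0.0396.

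That call was close to the threshold and did not hold in every fit, although a lost call need not mean a smaller difference. Without NAM10 the log2 difference was -0.67 with a limma adjusted p of 0.113, where 8 of all genes were called rather than 25. It was lost in 16 of the 41 fits that left out 1 soyNAM library each, those without NAM03, NAM05, NAM10, NAM12, NAM15, NAM27, NAM17, NAM22, NAM25, NAM29, NAM34, NAM38, NAM40, NAM41, NAM48 or NAM64. Over the 41 fits the log2 difference ran from -0.85 (without NAM13, adjusted p of 0.00114) to -0.59, and the highest adjusted p was 0.249, without NAM12. The exact rank-sum test gave p = 0.00452 and an adjusted p of 0.472. In milestone 17 and 61 the gene had 13.6 and 9.16 FPKM, against 8.58, 16.2 and 25.2 FPKM in the others, a log2 difference of -0.47 (95% interval -0.99 to 0.05).

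The remaining tested members gave no call, and the intervals bound their change on the log2(FPKM + 1) scale. In soyNAM parents, with NAM10 among them, 13 of all 39 tested members had an unadjusted limma p under 0.05, 6 higher and 7 lower, the 2 called ones included. This is a larger share than that over all genes, where 2597 (8.63%) did, and its cause was not tested. In milestone cultivars it was 1 of 39, where 1159 genes (3.85%) did. The right flank had log2 differences between -0.32 and 0.29 in soyNAM parents, and its highest upper 95% limit was 0.54, so none of its 19 tested genes had an interval that reaches a log2 difference of 1. Without NAM10 the right flank ran from -0.47 to 0.45, with a highest upper limit of 0.78. Over both flanks 38 of 39 upper limits were below 1 in soyNAM and 37 of 39 in milestone cultivars. The log2(FPKM + 1) scale understates changes of low genes. For members near 1 FPKM, such as Glyma.18G022800, a limit below 1 therefore does not bound the change in FPKM itself at that size. None of the 39 had sets that did not overlap in soyNAM parents, where 3 of all genes did not (0.00997%) and all 3 were repeat genes, among them Glyma.18G022400, whose level fixed the sets. In the milestone cultivars 33 genes (0.11%) did not overlap, 0.0465% higher and 0.0631% lower, and those between Glyma.18G019000 and Glyma.18G026000 were the same 3 repeat genes. On the rest of chromosome 18, 1434 genes were tested in soyNAM parents, and 1 was higher (Glyma.18G004900, log2 difference 1.03) and 0 lower.

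The member with the widest interval was Glyma.18G020600, which was at 0.1 FPKM or less in 13 libraries and at 1 FPKM or more in 49. It had 0.771, 0.411, 184, 0.0982, 0.264, 0.0853 and 0.237 FPKM in the 7 soyNAM rhg1-high libraries, against 0, 0.227 and 4.5 FPKM as the lowest, median and highest of the others. The level of 184 FPKM belonged to NAM10 alone. The log2 difference was 0.89 (95% interval 0.08 to 1.704, limma adjusted p of 0.503) and became -0.13 (-0.78 to 0.52) without NAM10. In milestone 17 and 61 it had 1.54 and 1.7 FPKM, against 0, 1.95 and 9.34 FPKM in the others.

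Glyma.18G024700 had 16.4 FPKM in milestone 17 and 13.6 FPKM in 61, against 5.84, 9.37 and 22.7 FPKM in the 59 others, a log2 difference of 0.55 (95% interval 0.09 to 1.01) with an unadjusted limma p of 0.0200 and an adjusted p of 0.9996. In soyNAM parents its log2 difference was -0.03 (-0.30 to 0.23), or 0.09 without NAM10. Glyma.18G024500, below the filter, was listed at 0 in 97 of the 102 libraries and reached 1 FPKM in the other 5. Its values were 1.37 FPKM in NAM13 and 4.24 FPKM in milestone 61, both rhg1-high, and 1.13 FPKM in NAM23, 3.36 FPKM in milestone 22 and 5.41 FPKM in milestone 54, all rhg1-other.

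The 4 most abundant members besides Glyma.18G023200 also showed no call. Glyma.18G024600 had 89.9, 121, 21, 89.4, 131, 91.6 and 115 FPKM in the 7 soyNAM rhg1-high libraries, against 10.6, 93.4 and 117 FPKM in the others, a log2 difference of -0.03, or 0.30 without NAM10. The lowest values in the 2 sets were those of NAM10 and Parent. Glyma.18G021500, Glyma.18G025600 and Glyma.18G025900 had soyNAM log2 differences of -0.03, 0.21 and 0.04, and of 0.14, 0.45 and 0.17 without NAM10. The limma adjusted p without NAM10 was 0.465 for Glyma.18G025600, whose 95% interval was then 0.11 to 0.78. In the milestone cultivars these 4 genes differed by 0.10, 0.45, 0.08 and 0.04, with intervals that include 0.

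Between the collections the flanking genes behaved otherwise, since most of them differed. Of the 39 tested members 14 were higher and 15 lower in soyNAM parents than in milestone cultivars by limma, and 32 differed by the exact rank-sum test. Over all genes 74.8% were called by limma (37% higher, 37.8% lower) and 78.4% by the rank-sum test, so the members' share is near that of the whole table. When the 9 rhg1-high libraries were set aside, 13 members were higher and 17 lower, and 28 had the same call as with all libraries.

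The largest difference was that of Glyma.18G021600, with 0.473 ± 0.135 FPKM in soyNAM parents, against 5.27 ± 1.96 FPKM in milestone cultivars (SD, n = 41 and 61). Its values ran from 0.231 to 0.834 FPKM in soyNAM parents, while the cultivars lay at 1.21 to 11.5 FPKM, without overlap. It was 1 of 39 members without overlap, where 1.03% of all genes had none and 0.784% were lower without overlap. The log2 difference was -2.02 (95% interval -2.17 to -1.88) with a limma adjusted p of 4.43e-46. Its neighbour Glyma.18G021700 had 4.66 ± 3.16 FPKM in soyNAM parents, against 12.2 ± 3.33 FPKM in milestone cultivars, a log2 difference of -1.34. Glyma.18G024600, the most abundant member, had 90.4 ± 23.4 FPKM in soyNAM parents, against 218 ± 44.8 FPKM in milestone cultivars, a log2 difference of -1.32. Both gene ranges overlapped between the collections.

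In the other direction, Glyma.18G025700 had 4.99 ± 1.14 FPKM in soyNAM parents, against 2.01 ± 0.747 FPKM in milestone cultivars, a log2 difference of 1.004. Glyma.18G021200 had 2.72 ± 1.13 and 1.09 ± 0.582 FPKM in soyNAM parents and milestone cultivars, a log2 difference of 0.80. Glyma.18G020900 had 11.7 ± 4.00 FPKM in soyNAM parents, against 6.1 ± 1.44 FPKM in milestone cultivars, a log2 difference of 0.79. On the right, the 4 successive tested members from Glyma.18G023100 to Glyma.18G024000 were all lower in soyNAM parents, the first with 6.31 ± 2.13 FPKM against 12.3 ± 3.13 FPKM. The run was picked after its values were seen, and 37.8% of all genes were called lower. Without the 5 libraries that stood apart, Glyma.18G023200 was no longer called in that run (log2 difference -0.06, limma adjusted p of 0.328). On the left, both tested genes before Glyma.18G022300 (Glyma.18G021600 and Glyma.18G021700) were lower as well, while the next one out, Glyma.18G021500, was not called (limma adjusted p of 0.221).

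The gene nearest the repeat on the left, Glyma.18G022300, had 6.45 ± 1.4 FPKM in soyNAM parents, against 6.73 ± 0.965 FPKM in milestone cultivars, a log2 difference of -0.07 with a limma adjusted p of 0.168. Among libraries below 20 FPKM of Glyma.18G022400 alone, that difference was -0.14 with an adjusted p of 0.00111. Glyma.18G022800 on the right had medians of 0.966 FPKM (soyNAM) and 1.02 FPKM (milestone), and was not called at an adjusted p of 0.0852.

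**Figure D4:**
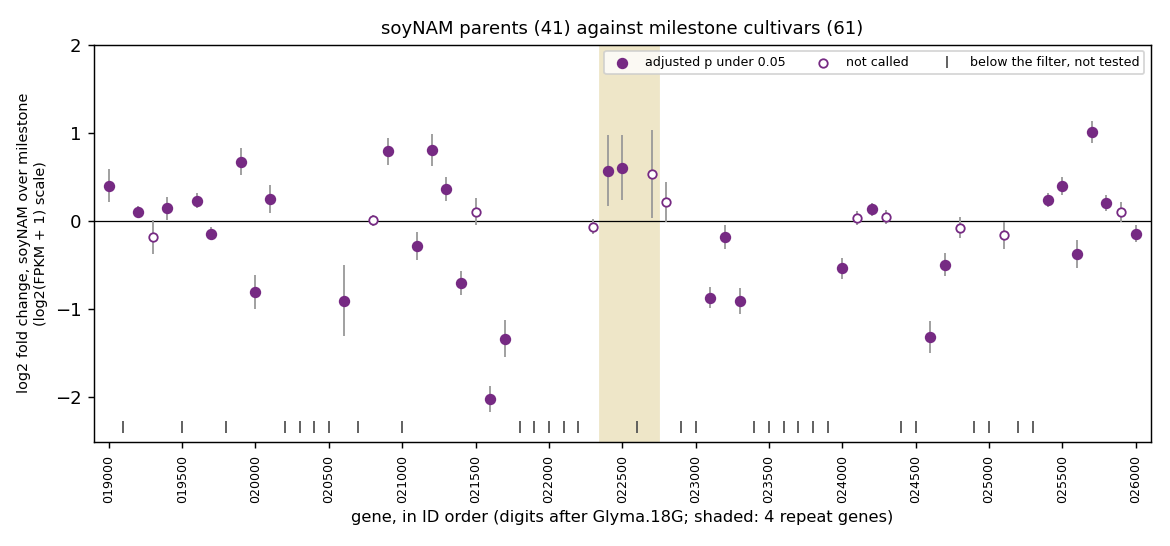
Log2 difference of soyNAM parents over milestone cultivars, on the log2(FPKM + 1) scale, for each gene in ID order, with 95% intervals from limma; filled points passed an adjusted p of 0.05 and ticks at the foot mark genes too low to test. Higher and lower members lie side by side on both flanks, from -2.02 (Glyma.18G021600) to 1.004 (Glyma.18G025700), while Glyma.18G022300 stands at -0.07.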

How the data were processed

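Leaf RNA of 102 accessions was sequenced, with 1 library per accession. Gene levels in FPKM were made and deposited by the authors, with Trimmomatic 0.32, STAR 2.4.1c and Cufflinks 2.2.1 according to the submitters' processing notes. The IDs carry the Wm82.a2.v1 suffix, and the settings of these tools are not given in the sources used here. FPKM has no counts, so depth is unknown, and sums over genes ranged from 459817 to 864712 FPKM per library. Labelled cultivars were assigned to the 2 collections from the series text and general knowledge of the soyNAM panel, and columns by their headers.

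FPKM values were used without further scaling as log2(FPKM + 1), which understates changes of low genes. An exact 0 may be a failed estimate. Genes with a mean under 1 FPKM were left out, and 30101 remained. limma 3.58.1 in R 4.3.3 (trended) was fitted to 4 sets (collection by rhg1 level), with 2-sided p-values adjusted by Benjamini-Hochberg over all genes at 0.05; collections were compared in a fit with 2 groups. Exact rank-sum tests, pseudocount, filter, scaling, split, slope, covariate and left-out libraries were alternatives. Both tests were checked on simulated data.

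The ID range of the members, the lists and the tests were chosen with earlier results of these data known. Within that range every ID outside the repeat was taken. Named genes were those called with the rhg1 level, the 5 nearest members on each side, the 5 most abundant, those at 0.1 FPKM or less in at least 10 libraries and at 1 FPKM or more in at least 10, the 3 largest in each direction between collections, and the repeat. Glyma.18G024700 and Glyma.18G024500 were added after their values were seen, as the member at an unadjusted p under 0.05 and one called without the filter, as was Glyma.18G004900. Glyma.18G021800 and the run from Glyma.18G023100 to Glyma.18G024000 between the collections were likewise added after their values were seen.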

Additional observations from a re-analysis of the deposited data

Results flagged for a closer look

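In the 7 soyNAM rhg1-high libraries, 18 members were looked at for a library far from the rest, meaning a gap to the nearest other library of more than 0.568 of the whole range. In 8 of them the highest or lowest library was that far away. Chance gives about 1 in 20 such groups where values are normally distributed, which was not checked for these FPKM values. The share over all genes was not counted, so the 8 are not shown to be particular to the flanking genes. Of the 8, 7 came from NAM10, one of the 5 libraries that stood apart in the correlation with the others, so they are not 7 separate events. NAM10 was far above in Glyma.18G020600 (184 FPKM), Glyma.18G021600 (0.834 FPKM), Glyma.18G022100 (1.699 FPKM), Glyma.18G022800 (16.5 FPKM) and Glyma.18G023100 (17.01 FPKM). It was far below in Glyma.18G023200 (16.1 FPKM) and Glyma.18G024600 (21.01 FPKM). The eighth was NAM13, far above the other 6 in Glyma.18G021100 (19.3 FPKM), the member that was lower in the set as a whole. The median correlation of NAM10 with the other libraries was 0.875, and its part in these values was not tested.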

How the results depend on the processing

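The rise of Glyma.18G022300 in soyNAM rhg1-high parents kept its direction and its call in all alternatives run, with a log2 difference of 0.42 to 0.53 in the fits on 2 sets. The lower call of Glyma.18G021100 was less stable: the count of lower members was 0 rather than 1 under quantile normalization, with the split at 10 FPKM, with a slope in place of the split, in the fit of the collection alone and by the exact rank-sum test, and it ran from 0 to 1 when 1 library was left out. Its adjusted p was 0.0529, 0.0554, 0.0616, 0.244 and 0.472 in these 5 alternatives. With no filter on low values, 2 members were called higher in milestone cultivars: Glyma.18G024500 (1.11 on the log2 scale, 4.24 FPKM in 61 and 0 in 17) and Glyma.18G019100 (0.13, with 0.193 FPKM in 17 only). In the difference between the collections, 1 member (Glyma.18G019100) was then called lower. With a filter at a mean of 5 FPKM, 8 members rather than 14 were higher in soyNAM than in milestone cultivars, from fewer genes tested.

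The count over all genes moved more than the members. For soyNAM rhg1-high libraries it was 25, against 62 without the filter, 10 with a filter at 5 FPKM, 14 after quantile normalization, 44 with a covariate from the residuals, 7 with the split at 10 FPKM, 11 with the slope, 7 in the collection alone and 7 without the 5 libraries that stood apart. It ran from 8 (without NAM10) to 70 (without NAM27). For milestone cultivars it was 48, against 420 without the filter, 27 with a filter at 5 FPKM, 73 with the covariate, 18 and 125 with the split at 10 and 40 FPKM, 103 with the slope and 83 without the 5 libraries, and 54 to 120 with library 61 or 17 left out. For the difference between the collections it was 25, against 295 without the filter, 14 with a filter at 5 FPKM, 10 and 77 with the split at 10 and 40 FPKM, and 51 to 79 with library 61 or 17 left out. The cause was not tested. Between collections, Glyma.18G021500, Glyma.18G022300, Glyma.18G022800 and Glyma.18G025900 each gained a call under at least 2 alternatives, and Glyma.18G023200 lost its call without the 5 libraries. No paired analysis was possible because the labels carry no replicate numbers: libraries were numbered in accession order within a collection, so a number shared by both collections marks no pair. Depth is unknown, so what it limits cannot be stated.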

Other observations

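NAM10 and Parent, a pair of the 5 soyNAM libraries that stood apart, were set beside the other 39 soyNAM parents in the 39 tested members. Both were above all 39 in 3 members (7.69%): Glyma.18G020600, Glyma.18G022800 and Glyma.18G023100. Both were below all 39 in 9 members (23.1%): Glyma.18G019700, Glyma.18G021200, Glyma.18G021500, Glyma.18G021700, Glyma.18G023300, Glyma.18G024000, Glyma.18G024600, Glyma.18G024700 and Glyma.18G025400. Over all genes tested the shares were 8.57% and 12%. The pair was chosen after the values were seen, so these shares are a description, with no test.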
